A study of Homo sapiens with 6 samples.

Results

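The DNA replication machinery was followed as a list of 45 genes for the proteins that license, start and carry out copying of the genome in S phase. Members were taken by symbol from the gene table, and each of the 45 was found among its 19899 genes. RNA was sequenced from COV434, an established line of ovarian origin, taken in the study as a model of SCCOHT, the hypercalcemic small cell cancer of the ovary that lacks BRG1 protein. BRG1 (gene SMARCA4) is a motor subunit of SWI/SNF, which moves nucleosomes. The 3 Control samples were COV434 cells given the empty plasmid pCDNA3-neo, and the 3 BRG1 samples were COV434 cells given PBJ5-BRG1. Both groups also received the puromycin resistance plasmid pBABE-puro, went on 2 to 3 µg/ml puromycin 24 hours after transfection and were collected after 3 days of it. Each sample was thus a bulk population of 1 line carrying a transient plasmid under drug selection, not a stable clone. Control and BRG1 samples with the same replicate number (1, 2 or 3) were compared as a pair.

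Replication starts when the origin recognition complex (ORC), CDC6 and CDT1 load the ring-shaped MCM2-7 helicase onto DNA in G1, a step that geminin (GMNN) blocks later in the cycle. In S phase CDC45, the GINS complex and MCM10 switch the helicase on, polymerase alpha-primase lays primers, and polymerases delta and epsilon extend them on the PCNA clamp, while RPA covers single strands and ribonucleotide reductase and thymidylate synthase supply deoxynucleotides. Many of these genes are transcribed around the G1/S transition under E2F transcription factors, which RB family proteins hold back, so their RNA is low in resting cells and high in dividing ones.

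Libraries held 29699741 to 63613710 estimated counts. BRG1 1 was the deepest and BRG1 3 the shallowest. SMARCA4 stood at 31.6, 36.7 and 33.3 CPM (estimated counts scaled to library size with TMM factors) in Control 1 to 3 and at 2316, 1714 and 1729 CPM in BRG1 1 to 3, where reads from the plasmid are included. SMARCA2, the alternative ATPase, was under 1 CPM in every sample. Of the granulosa cell markers FOXL2, FSHR, CYP19A1 and AMH, the genes FOXL2 and FSHR were at or near 0 throughout. Summed over these markers, SMARCA4 and SMARCA2, the level was 37.5 to 43.4 CPM in Control and 1728 to 2335 CPM in BRG1 samples. The highest sum of each group exceeded its SMARCA4 values, so CYP19A1 and AMH were not both at 0. Of 6 markers of blood and endothelial cells, 4 had enough counts to test. Their summed level was 8.12 to 16.6 CPM in Control and 83.0 to 97.4 CPM in BRG1 samples. VWF made up most of that difference, CD3E, CD14 and PECAM1 were at or near 0, and the part of these genes in the results was not tested. For the replication genes, BRG1 1 stood apart from the other libraries, and results for the whole list are therefore given with and without it. Medians by role are given with and without replicate 1.

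The replication genes lay lower in BRG1 than in Control cells, by a modest amount that differed widely between replicate pairs. In edgeR's quasi-likelihood test with the replicate number as a block, all 45 members were tested and all 45 had a log2 fold change below 0, against 55.7% of the 14246 genes tested. Called lower at an adjusted p under 0.05 were 5 of the 45 (11.1%), namely GINS4, RRM1, UHRF1, MCM5 and MCM6, where 5.68% of all genes tested were called lower. No member was called higher by edgeR, DESeq2 or limma-voom, where 13.7%, 13% and 14.6% of all genes were. At an unadjusted p under 0.05 none was higher in any of them, where 2643, 2493 and 2700 of the 14246 genes were. At that unadjusted level 23 members were lower in edgeR, as were 2220 of the 14246 genes. The median log2 fold change of the 45 was -0.37, with members between -0.78 and -0.01, and that of all genes tested was -0.04. Among the 9071 genes tested whose mean level lay in the same range as the members' (7.70 to 173 CPM), the median was -0.07 and 6.59% were called lower. In bulk samples like these, fewer cells in S phase and less of each RNA per cell cannot be told apart. Without the replicate block edgeR called 0 of the 45 lower (1 called by DESeq2 with no block). At an unadjusted p under 0.05 edgeR then had 2 members lower, beside 869 of the 14246 genes. With the single library BRG1 1 also left out, edgeR called 0 and the median was -0.08, beside -0.02 for all genes. The list was counted, not tested as a set.

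**Figure D1:**
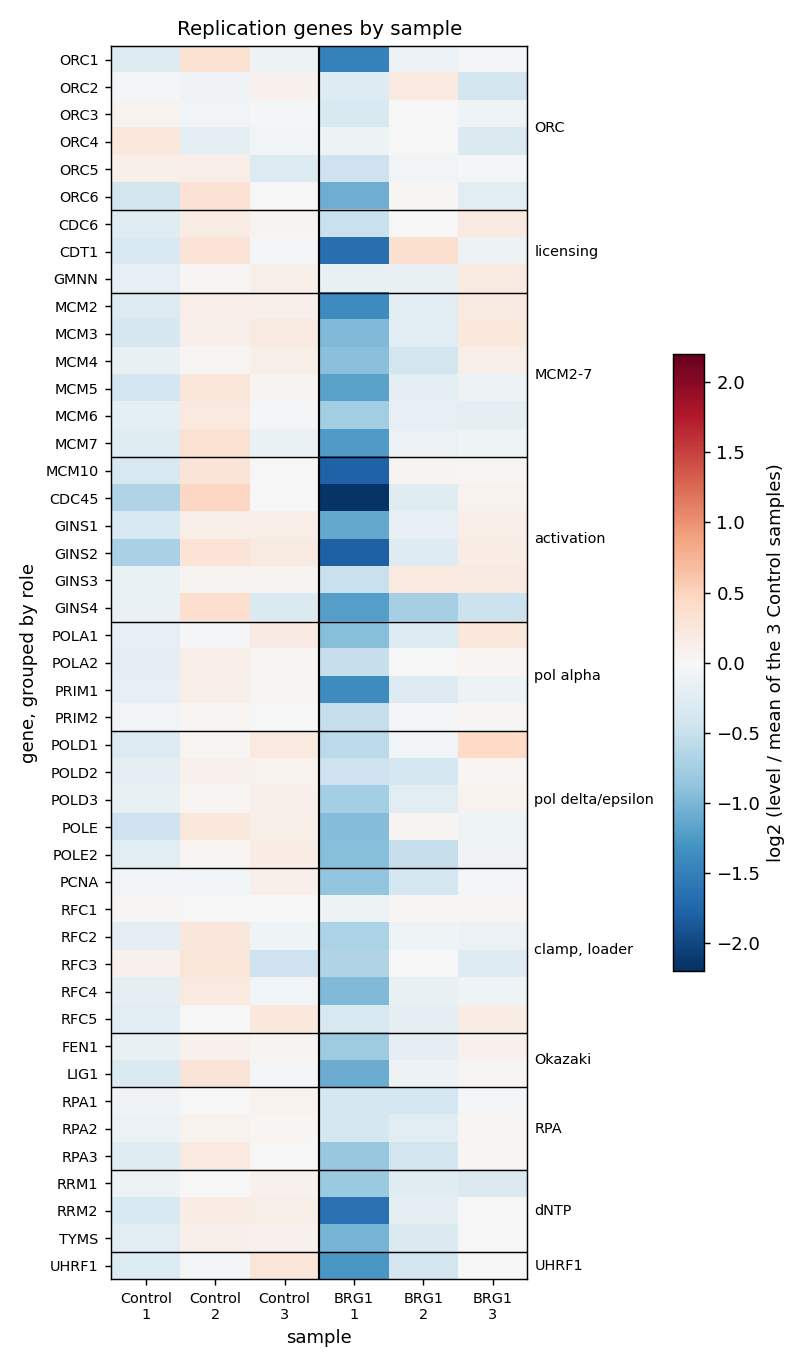
Level of each of the 45 replication genes (rows, grouped by role) in each of the 6 samples (columns), as the log2 ratio to the mean of the 3 Control samples. Blue is below and red above that mean. The BRG1 1 column is blue in every row and holds the lowest level of all 6 samples for 41 of the 45 genes. The median over the genes is -0.19 in BRG1 2, like Control 1 (-0.20), and 0.00 in BRG1 3.

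By sample, BRG1 1 held the lowest level of 41 of the 45 members. Summed over the list, the level was 2318, 2938 and 2782 CPM in Control 1 to 3 and 1507, 2346 and 2682 CPM in BRG1 1 to 3. BRG1 1 was thus far below every other sample, BRG1 2 was close to Control 1, and BRG1 3 lay within the range of the Control samples. Control 1 was itself the lowest Control sample for 38 members, and Control 2 was the highest of all samples for 23. The highest sample of a group exceeded the lowest by a median of 1.36 times in Control and 1.84 times in BRG1, and the spread was wider in BRG1 for 42 members. Every BRG1 sample lay below every Control sample for only 2 members, GINS4 and RRM1, an arrangement that 11.2% of all genes tested showed.

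Promoter windows of 250 bases before to 50 bases after the gene start were at hand for 39 members (RefSeq, GRCh38.p14). The choice of members did not use them. An E2F site, searched as TTTCCCGC, TTTCGCGC, TTTGCCGC or TTTGGCGC on both strands, was found in 20 of the 39 (51.3%), against 6.3% of the 10786 tested genes with a window and 3.31% of all 35116 windows. The share was 40.0% in the E2F and RB control list, 25.7% in other replication genes, 18.8% in checkpoint genes and 14.3% in both the nucleotide supply and the mitosis list. A CCAAT box (CCAAT) was found in 61.5% of members and 43.3% of tested genes, and in 85.7% of the mitosis and 68.8% of the checkpoint list. The CHR element of late cell cycle genes (TTTGAA or TTTAAA) was found in 10.3% of members and 22.1% of tested genes. Members with an E2F site had a median log2 fold change of -0.37, with 2 of 20 called lower (10%). Those with a window but no site had -0.28, with 1 of 19 called lower (5.26%), beside 5.68% of all genes tested. With replicate 1 left out of edgeR, the medians were -0.16 with a site and -0.19 without, the opposite order. GINS4 and MCM5, which were called lower, had no window and are in neither group. The difference between the groups was not tested. Only exact letters were counted, so windows scored without a site can hold near matches. Examples are tttggcgg in CDC45 and MCM10, ttggcgc in RFC1 and gttcccgc in RRM1. Windows of 5 members are printed 5′ to 3′ on the gene's own strand, with E2F sites in capitals, because they pair called with near-zero genes on either side of the motif. MCM6 (chr2:135876394-135876693, minus strand) and UHRF1 (chr19:4909251-4909550, plus strand) were called lower and hold the site. RRM1 (chr11:4094435-4094734, plus strand) was called lower and holds no exact match, only the near match named above. GINS3 (chr16:58392221-58392520, plus strand) holds the site, RFC1 (chr4:39366313-39366612, minus strand) does not, and their log2 fold changes were -0.02 and -0.01.
MCM6: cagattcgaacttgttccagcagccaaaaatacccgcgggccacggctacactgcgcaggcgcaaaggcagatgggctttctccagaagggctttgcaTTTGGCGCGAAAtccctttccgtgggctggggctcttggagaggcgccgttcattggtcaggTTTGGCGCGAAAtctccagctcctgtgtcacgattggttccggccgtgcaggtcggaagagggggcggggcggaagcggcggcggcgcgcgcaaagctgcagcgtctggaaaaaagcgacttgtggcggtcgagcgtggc
UHRF1: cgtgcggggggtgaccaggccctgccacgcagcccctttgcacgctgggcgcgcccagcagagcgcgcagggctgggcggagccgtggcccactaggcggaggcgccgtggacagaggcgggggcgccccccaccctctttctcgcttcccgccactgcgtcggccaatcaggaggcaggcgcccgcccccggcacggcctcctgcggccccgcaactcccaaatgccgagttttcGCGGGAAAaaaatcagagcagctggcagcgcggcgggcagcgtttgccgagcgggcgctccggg
RRM1: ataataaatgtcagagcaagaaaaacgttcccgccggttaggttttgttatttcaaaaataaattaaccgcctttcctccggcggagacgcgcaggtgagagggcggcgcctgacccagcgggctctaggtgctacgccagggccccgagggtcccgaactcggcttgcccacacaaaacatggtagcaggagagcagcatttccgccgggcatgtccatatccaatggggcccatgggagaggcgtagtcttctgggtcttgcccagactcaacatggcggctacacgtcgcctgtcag
GINS3: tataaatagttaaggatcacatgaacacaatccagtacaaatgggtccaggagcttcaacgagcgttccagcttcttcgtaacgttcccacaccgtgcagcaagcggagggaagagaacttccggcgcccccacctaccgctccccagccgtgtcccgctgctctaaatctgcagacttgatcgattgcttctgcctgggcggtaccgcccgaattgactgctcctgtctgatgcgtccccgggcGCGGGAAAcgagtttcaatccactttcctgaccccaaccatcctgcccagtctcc
RFC1: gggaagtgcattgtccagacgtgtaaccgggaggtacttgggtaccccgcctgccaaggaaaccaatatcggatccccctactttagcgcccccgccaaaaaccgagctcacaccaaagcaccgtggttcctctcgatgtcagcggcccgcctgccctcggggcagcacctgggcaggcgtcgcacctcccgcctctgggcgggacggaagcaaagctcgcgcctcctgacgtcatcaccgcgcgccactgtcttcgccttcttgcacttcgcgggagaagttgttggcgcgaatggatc
In MCM6 the 4 matches start at -152, -148, -90 and -86 from the gene start and form pairs that overlap on opposite strands. The UHRF1 match starts at -14 and the GINS3 match at -5. UHRF1 has 3 RefSeq windows, of which the one with the match nearest the gene start is printed. A match of letters is a description of the window and shows neither binding nor use of the site.

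**Figure D2:**
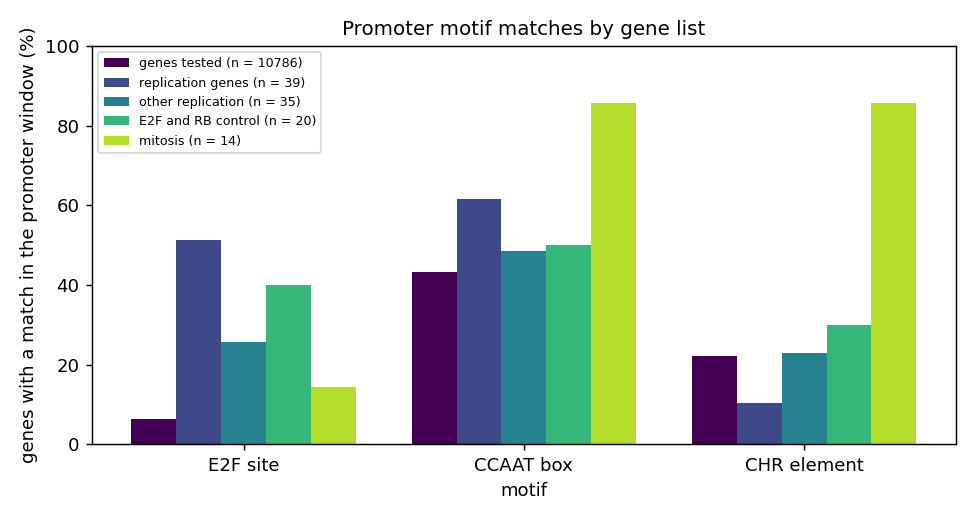
Share of genes (vertical axis, in percent) with at least 1 match to an E2F site, a CCAAT box or a CHR element in the promoter window, for the tested genes, the replication genes and further lists (colours). E2F sites were found in 51.3% of replication genes and 6.3% of tested genes, and CHR elements in 85.7% of the mitosis list and 22.1% of tested genes.

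The MCM2-7 helicase unwinds the parental DNA, and its genes had a median log2 fold change of -0.42, a range from -0.47 to -0.31 and 2 of 6 called lower. MCM5 (chr22:35400134-35425431, plus strand, GENCODE release 44 on GRCh38) stood at 76.7, 124 and 107 CPM in Control 1 to 3 and at 45.3, 89.3 and 95.3 CPM in BRG1 1 to 3. BRG1 was lower in each of the 3 pairs, but BRG1 2 and BRG1 3 lay above Control 1, so the groups overlapped. MCM5 fell by 0.47 on the log2 scale (SE 0.12, adjusted p = 0.0335, edgeR). MCM6 (chr2:135839626-135876443, minus strand) stood at 116, 155 and 130.1 CPM in Control and at 78.8, 118 and 116 CPM in BRG1 samples. It was lower in each of the 3 pairs, with overlap through Control 1 again, and fell by 0.37 on the log2 scale (SE 0.10, adjusted p = 0.0357, edgeR).

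MCM2 was at 85.4, 117 and 113 CPM in Control and at 40.4, 89.0 and 121 CPM in BRG1 samples. Its lowest and its highest value both came from BRG1 samples, and a log2 fold change of -0.46 (SE 0.20, adjusted p = 0.156, edgeR) did not pass. MCM3 was at 131, 183 and 195 CPM in Control and at 86.3, 145 and 199 CPM in BRG1 samples, with the same arrangement (log2 -0.31, SE 0.12, adjusted p = 0.130, edgeR). MCM4 and MCM7 had log2 values of -0.39 and -0.46 and were not called by edgeR, while DESeq2 with the block called both lower (adjusted p = 0.0491 and 0.0416). About 23.6% of the exonic bases of MCM2 lie under another annotated gene, and in these unstranded libraries such reads cannot be told apart.

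Helicase activation showed the widest range, with a median log2 fold change of -0.54 and 1 of 6 called lower. GINS4, a subunit of the GINS complex that joins CDC45 and MCM2-7, stood at 23.2, 33.0 and 20.5 CPM in Control and at 11.1, 15.3 and 18.5 CPM in BRG1 samples. The highest BRG1 sample lay under the lowest Control sample. GINS4 fell by 0.78 on the log2 scale (SE 0.20, adjusted p = 0.0326, edgeR), a change of -41.7% in level and the largest difference of the 45. GINS3, another subunit of the same complex, was at 11.97, 13.8 and 13.8 CPM in Control and at 9.41, 15.3 and 15.1 CPM in BRG1 samples. BRG1 1 was the lowest and the other BRG1 samples were the highest, and the log2 fold change was -0.02 (SE 0.15, adjusted p = 0.933, edgeR). CDC45, picked after its values were seen, was at 16.3, 35.5 and 25.6 CPM in Control and at 5.78, 21.6 and 27.1 CPM in BRG1 samples. Its log2 fold change of -0.69 was the second largest, with an SE of 0.26 (adjusted p = 0.113, edgeR). MCM10, GINS1 and GINS2 had log2 values of -0.53, -0.37 and -0.56 and were not called by edgeR, while DESeq2 with the block called GINS2 and CDC45 lower (adjusted p = 0.0373 and 0.0388). GINS4 shares 23.4% of its exonic bases with other annotated genes.

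The 6 ORC genes had a median log2 fold change of -0.17 and none was called by edgeR, with 1, ORC6, lower at an unadjusted p under 0.05 and by DESeq2 with the block. ORC1, the ATPase subunit whose level follows the cell cycle, was at 12.2, 18.7 and 13.6 CPM in Control and at 5.26, 13.6 and 14.5 CPM in BRG1 samples (log2 -0.52, SE 0.23, adjusted p = 0.168, edgeR). BRG1 1 stood alone at the bottom and the rest overlapped. ORC4 was at 43.1, 31.7 and 35.3 CPM in Control and at 33.8, 36.8 and 29.4 CPM in BRG1 samples, with a log2 fold change of -0.13 (SE 0.13, adjusted p = 0.501, edgeR). ORC2, ORC3 and ORC5 had log2 values between -0.18 and -0.14, and ORC6 had -0.40.

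CDC6, the ATPase that recruits the helicase with CDT1, was at 47.6, 64.7 and 60.2 CPM in Control and at 41.1, 57.4 and 65.9 CPM in BRG1 samples, and the groups overlapped almost fully (log2 -0.09, SE 0.10, adjusted p = 0.577, edgeR). CDT1 was at 25.1, 39.3 and 31.1 CPM in Control and at 10.1, 40.6 and 29.4 CPM in BRG1 samples. Its log2 fold change of -0.43 (SE 0.25, adjusted p = 0.271, edgeR) went with a low BRG1 1, and pairs 2 and 3 differed by 0.05 and -0.08. GMNN, the inhibitor of CDT1, was at 12.3, 14.2 and 15.2 CPM in Control and at 12.5, 12.4 and 16.0 CPM in BRG1 samples (log2 -0.03, SE 0.12, adjusted p = 0.872, edgeR). It was the 1 member of the 45 that was not lower in pair 1.

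**Figure D3:**
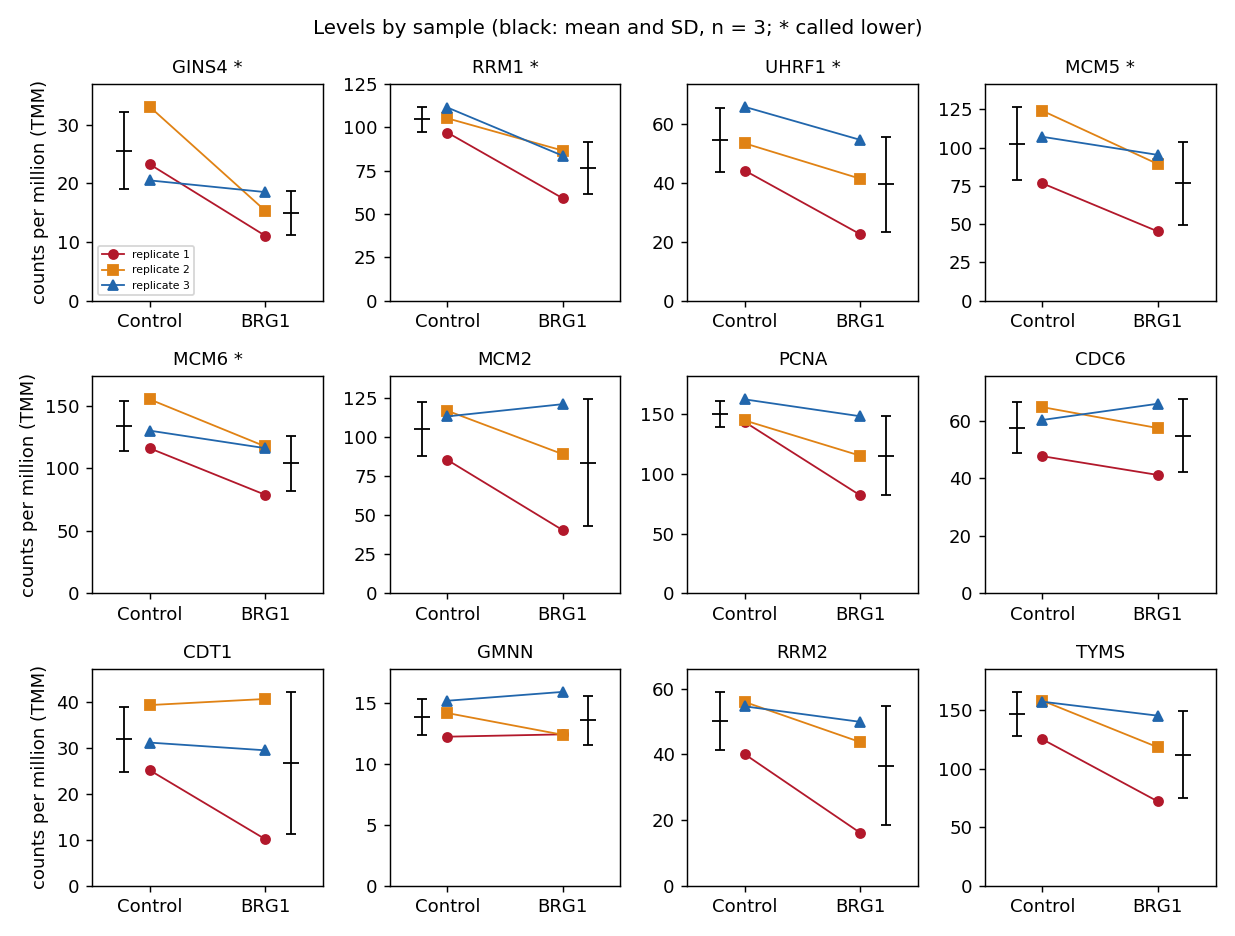
Level in CPM (vertical axes, from 0) of 12 replication genes in Control and BRG1 samples. Coloured symbols joined by a line are the samples of 1 replicate number, and black marks give the mean and SD of the 3 samples of a group. The red line of replicate 1 drops in 11 of the 12 panels, GMNN being the exception, while the blue line of replicate 3 stays nearly level in most.

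Among the 4 polymerase alpha-primase and 5 polymerase delta and epsilon genes none was called by edgeR, and 1 and 3 of them were lower at an unadjusted p under 0.05. PRIM1, the catalytic subunit of primase, was at 7.98, 9.84 and 9.17 CPM in Control and at 3.46, 7.36 and 8.37 CPM in BRG1 samples (log2 -0.58, SE 0.22, adjusted p = 0.121, edgeR). It was lower in each of the 3 pairs, yet BRG1 3 lay above Control 1. POLA2, the accessory subunit of polymerase alpha, was at 31.3, 39.9 and 36.7 CPM in Control and at 25.4, 35.6 and 37.1 CPM in BRG1 samples (log2 -0.15, SE 0.10, adjusted p = 0.326, edgeR). POLE2, a subunit of the leading strand polymerase epsilon, was at 7.77, 9.33 and 10.2 CPM in Control and at 4.76, 6.37 and 8.57 CPM in BRG1 samples. It too was lower in each pair and overlapped through Control 1 (log2 -0.50, SE 0.16, adjusted p = 0.0721, edgeR). POLD1, the catalytic subunit of the lagging strand polymerase delta, was at 38.4, 48.2 and 54.5 CPM in Control and at 31.1, 44.97 and 63.99 CPM in BRG1 samples, with the extremes of all 6 samples in the BRG1 group (log2 -0.06, SE 0.11, adjusted p = 0.773, edgeR). POLA1, PRIM2, POLD2, POLD3 and POLE had log2 values between -0.33 and -0.18. Of the exonic bases of POLA2 and PRIM1, 21.3% and 19.1% lie under other annotated genes.

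Among the clamp and clamp loader genes none was called by edgeR, and 3 of the 6 were lower at an unadjusted p under 0.05. PCNA, the clamp that tethers the polymerases, was at 144, 145 and 163 CPM in Control and at 82.1, 115 and 148 CPM in BRG1 samples. It was lower in each of the 3 pairs, while BRG1 3 lay above Control 1 and Control 2, and its log2 fold change was -0.42 (SE 0.13, adjusted p = 0.0639, edgeR). RFC1, the large subunit of the clamp loader, had the value nearest 0 of the 45. It was at 86.2, 84.8 and 84.3 CPM in Control and at 79.0, 86.4 and 88.0 CPM in BRG1 samples (log2 -0.01, SE 0.08, adjusted p = 0.931, edgeR). The small subunits RFC2 to RFC5 had log2 values between -0.40 and -0.12, and none was called by edgeR or by DESeq2 with the block. PCNA was called lower by DESeq2 and limma-voom with the block (adjusted p = 0.0197 and 0.0456).

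Genes that finish Okazaki fragments and coat single strands gave values in the middle of the list. LIG1, the ligase that seals the fragments, was at 43.4, 65.7 and 52.2 CPM in Control and at 25.2, 49.7 and 54.9 CPM in BRG1 samples (log2 -0.37, SE 0.15, adjusted p = 0.139, edgeR). FEN1, the flap nuclease, was at 65.8, 79.1 and 76.5 CPM in Control and at 42.9, 64.7 and 79.1 CPM in BRG1 samples (log2 -0.28, SE 0.13, adjusted p = 0.167, edgeR). Both were lower in pairs 1 and 2 and slightly higher in pair 3. RPA3, the smallest RPA subunit, was at 16.7, 23.4 and 20.2 CPM in Control and at 11.3, 15.1 and 20.7 CPM in BRG1 samples (log2 -0.39, SE 0.15, adjusted p = 0.128, edgeR). RPA2 was at 39.6, 45.4 and 44.3 CPM in Control and at 33.0, 36.5 and 43.9 CPM in BRG1 samples (log2 -0.20, SE 0.09, adjusted p = 0.193, edgeR). For each RPA gene pair 2 gave a lower ratio than pair 1, whereas pair 1 was the lower of these for 38 of the 45 members. RPA1 had a log2 value of -0.27 and was not called by edgeR or by DESeq2 with the block.

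Deoxynucleotide synthesis was the role in which each of the 3 genes was lower in each of the 3 pairs, with a median log2 fold change of -0.47. RRM1 (chr11:4094707-4138932, plus strand), the large subunit of ribonucleotide reductase, stood at 96.9, 105 and 111 CPM in Control and at 59.0, 86.5 and 83.5 CPM in BRG1 samples. The groups did not overlap, and the pairs differed by -0.71, -0.28 and -0.41 on the log2 scale. RRM1 fell by 0.47 (SE 0.10, adjusted p = 0.0188, edgeR), which was the lowest adjusted p of the list. RRM2, the small subunit made in S phase, was at 40.0, 55.9 and 54.6 CPM in Control and at 16.1, 43.7 and 49.9 CPM in BRG1 samples. Its 3 pairs differed by -1.29, -0.35 and -0.13, and the log2 fold change of -0.59 (SE 0.21, adjusted p = 0.0957, edgeR) did not pass, while DESeq2 with the block called it lower (adjusted p = 0.0314). TYMS, thymidylate synthase, was at 125, 158 and 157 CPM in Control and at 71.9, 118 and 145 CPM in BRG1 samples (log2 -0.44, SE 0.13, adjusted p = 0.0542, edgeR), and was called lower by DESeq2 and limma-voom with the block (adjusted p = 0.0121 and 0.0374). For TYMS 47.9% of the exonic bases lie under ENOSF1 and TYMSOS, so its reads are uncertain without strand. PCNA, RRM2 and PRIM2 also have near-identical copies elsewhere in the genome, among which the quantification may have split reads.

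UHRF1 (chr19:4903080-4962154, plus strand), which brings the maintenance DNA methyltransferase to newly copied DNA, stood at 44.1, 53.4 and 65.7 CPM in Control and at 22.5, 41.4 and 54.5 CPM in BRG1 samples. It was lower in each of the 3 pairs, by -0.95, -0.36 and -0.27 on the log2 scale, although BRG1 3 lay above Control 1 and Control 2. UHRF1 fell by 0.53 on the log2 scale (SE 0.14, adjusted p = 0.0386, edgeR).

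The size of the difference depended on the pair. Within pair 1 the median log2 ratio of BRG1 to Control over the 45 members was -0.65, within pair 2 it was -0.31 and within pair 3 it was -0.03, beside -0.07, -0.02 and 0.00 for all genes tested. BRG1 was lower than Control for 44, 39 and 25 of the 45 in pairs 1, 2 and 3 (97.8%, 86.7% and 55.6%). The shares were 56.7%, 52.3% and 49.8% of all genes tested. Among genes in the members' level range they were 62.6%, 56.8% and 55.4%, so in pair 3 the members' share was close to that of such genes. A log2 ratio below -0.5 was found for 29 members in pair 1 (64.4%, against 10.4% of all genes tested), for 5 in pair 2 (11.1% against 6.14%) and for 0 in pair 3 (2.44% of all genes). Pair 1 gave the lowest ratio of the 3 pairs for 37 members and pair 3 gave the highest for 38. Lower in all 3 pairs were 21 members (46.7%), against 30.2% of all genes tested and 35.0% of those in the members' level range. The share was 53.8% in the 5 further lists together, from 20% of the checkpoint to 88.2% of the mitosis list. Each pair holds 1 sample of each group, so the differences between pairs have no replicate and were not tested.

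**Figure D4:**
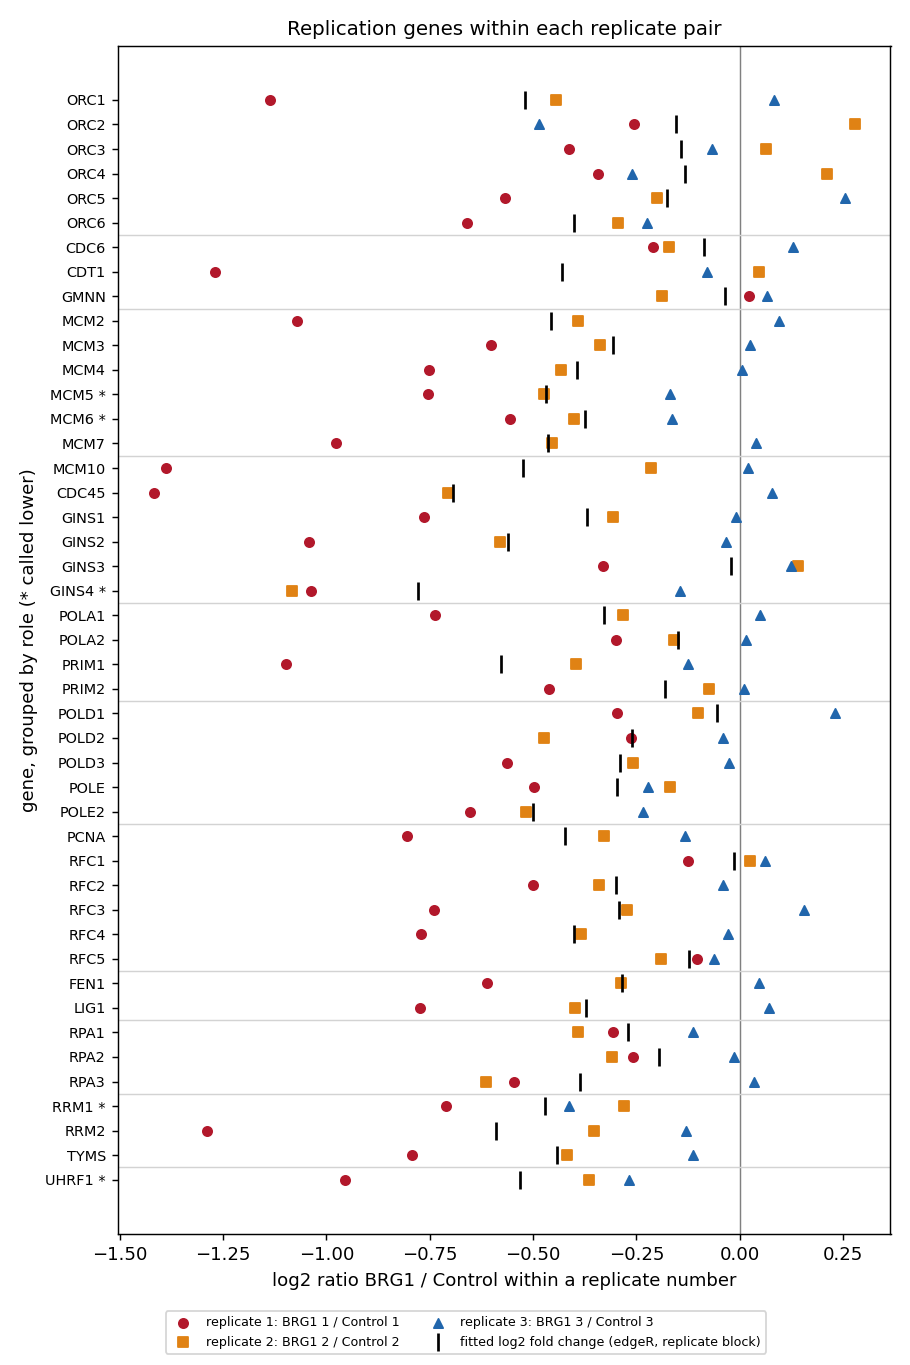
Log2 ratio of BRG1 to Control (horizontal axis) within each replicate number for the 45 replication genes (rows, grouped by role, an asterisk marking those called lower), with the fitted log2 fold change as a black bar. Red circles of pair 1 lie farthest left for 37 genes, with a median of -0.65, and blue triangles of pair 3 scatter around 0, with a median of -0.03.

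The number of calls changed with the block and with the pairs included. Without the replicate block, edgeR called 0 of the 45 lower (1.02% of all genes), and the median log2 fold change was -0.30. At an unadjusted p under 0.05 there were 2 members lower, beside 869 of the 14246 genes tested. DESeq2 with the block called 13 lower (6.39% of all genes), limma-voom with the block called 7 (7.08%), and DESeq2 without the block called 1, GINS4 (1.78%). On simulated data in an earlier analysis, DESeq2 gave shares of false calls over its threshold, so calls by DESeq2 alone are less certain. With replicate 1 left out of edgeR, 0 members were called lower (2.3% of all genes) and the median was -0.17. At an unadjusted p under 0.05 there were then 7 members lower, beside 1228 of the genes tested in the main fit. By role, the median without replicate 1 was -0.21 for MCM2-7, -0.24 for helicase activation, -0.06 for ORC and -0.27 for deoxynucleotide synthesis. With replicate 2 left out, 1 was called, RRM1 (0.789%). With replicate 3 left out, 26 were called (7.29%) and the median was -0.46. With the single library BRG1 1 left out and no block, 0 were called by edgeR (0.456%) and the median of the list was -0.08, beside -0.02 for all genes. Leaving out Control 1, Control 2, Control 3, BRG1 2 or BRG1 3 in the same way called 0, 0, 0, 0 and 1 lower, with 0.359%, 0.386%, 0.402%, 0.273% and 1.74% of all genes. Library totals in place of TMM factors called 2 (3.17%), a test of any gene with a count called 8 (5.42%), and an adjusted p under 0.01 left 0 (1.09%, edgeR, with 23 lower at an unadjusted p under 0.05, 13 called by DESeq2 at 0.05). Of the 5 called members, GINS4 and RRM1 had adjusted p-values of 0.0676 and 0.0599 without replicate 1, and MCM5, MCM6 and UHRF1 had 0.104, 0.136 and 0.0928, with each log2 fold change still below 0 in all 18 alternatives fitted.

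Further genes of replication and the cell cycle, in 5 lists, gave 12 called lower and 4 higher of 130 tested, which is 9.23% lower beside 5.68% of all genes, while 13.7% of all genes were higher. Without the block edgeR called 1 lower and 2 higher, without replicate 1 it called 2 and 2, and without replicate 2 it called 0 and 1. Among 43 other replication genes (median log2 -0.22) 4 were called lower and 1 higher. LRWD1, an ORC-associated protein, was at 38.8 to 41.6 CPM in Control and 30.5 to 31.0 CPM in BRG1 samples and fell by 0.37 on the log2 scale (adjusted p = 0.0227, edgeR). RECQL4 and WDHD1, which act in helicase activation, fell by 0.54 and 0.45 (adjusted p = 0.0325 and 0.0470, edgeR), and the fourth called lower, named after its values were seen, was the histone chaperone subunit CHAF1A. POLD4, the smallest subunit of polymerase delta, went the other way. It was at 34.8 to 38.2 CPM in Control and 47.6 to 71.0 CPM in BRG1 samples and rose (log2 0.64, SE 0.13, adjusted p = 0.0130, edgeR). TOP2A, the S/G2 topoisomerase, and DNMT1, the maintenance methyltransferase that UHRF1 recruits, had log2 fold changes of -0.07 and -0.16 (adjusted p = 0.585 and 0.221, edgeR).

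Among 25 nucleotide supply genes (median log2 -0.24) 2 were called lower and 2 higher. SAMHD1, which breaks down deoxynucleotides, stood at 86.0, 91.7 and 102 CPM in Control and at 212, 247 and 308 CPM in BRG1 samples. It rose by 1.44 on the log2 scale (SE 0.09, adjusted p = 4.42e-05, edgeR), with no overlap and by a similar amount in the 3 pairs (1.30, 1.43 and 1.59). IMPDH2, of guanine nucleotide synthesis, was at 394 to 425 CPM in Control and 273 to 303 CPM in BRG1 samples and fell by 0.50 (adjusted p = 0.00487, edgeR). PAICS, of purine synthesis, fell by 0.38 (adjusted p = 0.0339), and SHMT2, of mitochondrial folate metabolism, rose by 0.30 (adjusted p = 0.0412, both edgeR). TK1, the S-phase thymidine kinase, had a log2 fold change of -0.46 (adjusted p = 0.0604, edgeR).

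In the E2F and RB control list (25 genes, median log2 -0.18) 3 were called lower and 0 higher by edgeR, with 1 higher at an unadjusted p under 0.05. CCNA2, the S-phase cyclin, RBL1, the RB relative p107, and TFDP2, an E2F partner, fell by 0.64, 0.53 and 0.37 on the log2 scale (adjusted p = 0.0309, 0.0410 and 0.0360, edgeR). E2F1 was at 31.4, 56.1 and 45.6 CPM in Control and at 16.2, 39.1 and 44.3 CPM in BRG1 samples (log2 -0.50, SE 0.16, adjusted p = 0.0727, edgeR). CDKN1A, the inhibitor p21, was at 599, 515 and 286 CPM in Control and at 572, 485 and 326 CPM in BRG1 samples, so replicate 3 was low in both groups, and the log2 fold change was 0.01 (SE 0.09, adjusted p = 0.939, edgeR). CDKN1C was near 1 CPM in both groups (log2 0.03, adjusted p = 0.961, edgeR).

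Of 20 replication checkpoint genes tested (median log2 -0.10) 0 were called lower and 1 higher by edgeR, while 2 were lower at an unadjusted p under 0.05 and DESeq2 with the block called 2 lower. WEE1 was the gene called higher, a kinase that restrains CDK1 and CDK2 (log2 0.40, SE 0.11, adjusted p = 0.0451, edgeR). CHEK1, the checkpoint kinase, was at 40.5, 38.3 and 45.9 CPM in Control and at 18.9, 28.4 and 41.0 CPM in BRG1 samples (log2 -0.56, SE 0.17, adjusted p = 0.0605, edgeR). SLFN11 was at 0 in every sample and was not tested. The 17 mitosis genes had a median log2 fold change of -0.42, with 3 called lower (KIF20A, NUSAP1 and CCNB2, which fell by 0.60, 0.48 and 0.48, adjusted p = 0.0399, 0.0437 and 0.0402, edgeR), and their pair medians of -0.64, -0.45 and -0.11 were in the same order as those of the replication genes.

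**Figure D5:**
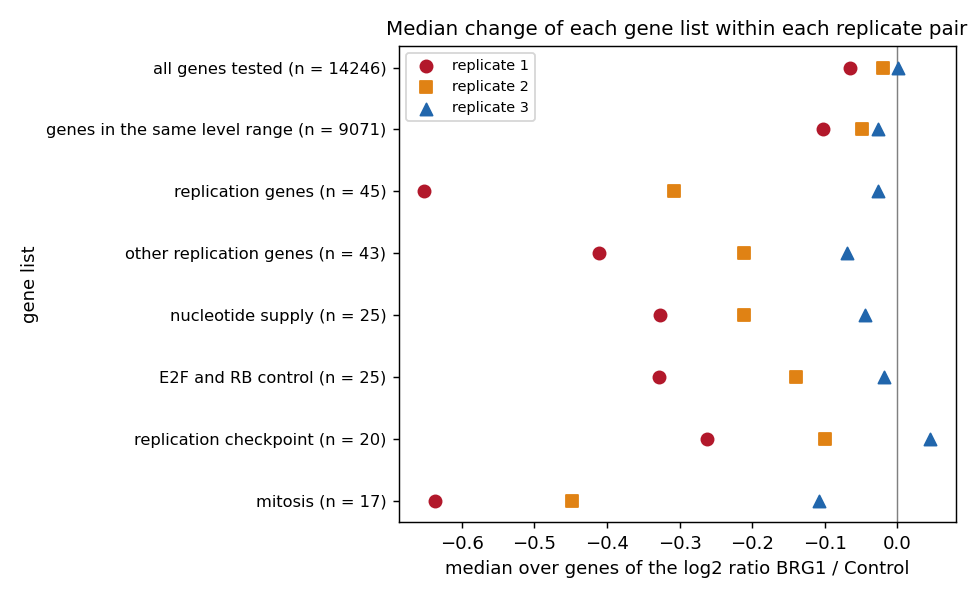
Median over genes of the log2 ratio of BRG1 to Control (horizontal axis) within each replicate number, for all genes tested, genes in the same level range, the replication genes and the 5 further lists. Pair 1 (red circles) lies farthest below 0 in each list, where the replication and mitosis lists have medians of -0.65 and -0.64. In pair 3 the replication median is -0.03, above that of other replication genes (-0.07).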

How the data were processed

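RNA-seq of COV434 cells with control or BRG1 plasmid (3 samples each) was used as gene-level estimated counts that the authors deposited. Per the labels and the study's methods, the authors prepared unstranded poly(A) libraries from 500 ng of RNA (read pairs of 78 bp), aligned them with STAR (2.5.3a) to hg38, quantified GENCODE transcripts with Salmon (0.8.2), summed them to genes with tximport as length-scaled TPM counts and tested genes with DESeq2 (1.22.2). FastQC (0.11.5) is named in the submitters' processing notes. Length-scaled counts are adjusted for changes in transcript usage between samples but are not per length, so levels were not compared between genes. Salmon shares out reads that match several genes by a model.

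Estimated counts were made whole by rounding, scaled with TMM factors and tested with edgeR (4.0.16, R 4.3.3) by glmQLFit and glmQLFTest, with the replicate number as a block. Low genes were removed with filterByExpr by group, which left 14246 genes, and p-values were adjusted by the Benjamini-Hochberg method over all of them. SE is the log2 fold change divided by the square root of F. Ratios within a pair used CPM plus 0.5. DESeq2 (1.42.0) and limma-voom (limma 3.58.1) were alternatives, with other scalings, filters, a threshold of 0.01 and left-out replicates. The fits were tested on simulated counts, which were drawn from edgeR's own fit with the block and its dispersions. The study's DESeq2 formula is not given in the sources used here. In an earlier analysis of these data, DESeq2 gave shares of false calls over its threshold on simulated data. For that reason edgeR was used as the main test and DESeq2 as an alternative.

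Numbers were taken to pair the samples. Control and BRG1 samples of the same number deviated together from their group means (correlations of 0.51, 0.53 and 0.58 over 14246 genes, as log2 of CPM plus 1), while differently numbered samples gave -0.52 to 0.08. Deviations within a group cancel out for each gene. The values of differently numbered samples therefore follow in part from the same-numbered ones and are no separate support. The design text calls the samples biological replicates. Replicate libraries of a group differed by more than sampling noise, so each was counted.

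Members and lists were chosen with earlier results of these data known. Described with full values were MCM2, MCM5, PCNA, CDC6, CDT1, GMNN, RRM2, TYMS and UHRF1, each member called, and the member of each role with the largest and with the smallest change. Of each further list (other replication, nucleotide supply, E2F and RB control, replication checkpoint and mitosis genes) up to 3 called genes per direction were named, and 8 fixed ones. Gene positions are from GENCODE release 44 on GRCh38, a later release than the one named in the study's methods. The shares of exonic bases under other genes can differ in the authors' release. Promoter windows are from RefSeq, GRCh38.p14. For MCM4, MCM5, GINS4, POLD3, RPA2 and RPA3 none was used here. Members had 224 estimated counts or more in each library, and the part of depth in the spread between replicates was not tested.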

Additional observations from a re-analysis of the deposited data

How the results depend on the processing

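The number of genes called depended on the settings. Replication genes called lower numbered 5 and became 0 without the replicate block (edgeR), 13 by DESeq2 with the block, 1 by DESeq2 with no block, 2 with library totals only, 8 with any gene with a count and 0 at an adjusted p under 0.01. Leaving out 1 replicate number gave 0 to 26 of them, and leaving out single libraries, with no block, gave 0, 0, 0, 0, 0 and 1. Genes of the further lists called lower numbered 12 and became 1 without the replicate block (edgeR), 26 by DESeq2 with the block, 2 by DESeq2 with no block, 19 by limma-voom, 3 with library totals only, 25 with any gene with a count and 1 at an adjusted p under 0.01. With 1 replicate number left out there were 0 to 48 of them, and with single libraries left out 1, 0, 0, 1, 0 and 2. Those called higher numbered 4 and became 2 without the replicate block (edgeR), 2 by DESeq2 with no block and 1 at an adjusted p under 0.01. The same leave-outs gave 1 to 5 of them, and with single libraries left out 1, 1, 1, 1, 1 and 2. All genes called lower numbered 809 and became 146 without the replicate block (edgeR), 291 by DESeq2 with no block, 451 with library totals only and 155 at an adjusted p under 0.01. Replicate leave-outs gave 114 to 1048 of them, and with single libraries left out 53, 57, 58, 65, 39 and 256. All genes called higher numbered 1950. Without 1 replicate number there were 1295 to 2391 of them, and with single libraries left out 1099, 1028, 1068, 1120, 1049 and 1795. Single libraries are given in the order Control 1, 2 and 3 and BRG1 1, 2 and 3. The replicate block was kept since same-numbered samples deviated together. The cause of these shifts was not tested.

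Of the 45 replication genes, 12 had a log2 fold change above 0 in at least 1 alternative, and 36 stayed below 0 when BRG1 1 was left out, single libraries again being left out with no block. Of these 12, MCM10, ORC2, ORC5 and RFC5 reached at most 0.042, 0.055, 0.026 and 0.0035. CDC6 (-0.09 as reported) became 0.017 without Control 2 and 0.099 without BRG1 1. CDT1 (-0.43 as reported) became 0.14 without BRG1 1. GMNN (-0.03 as reported) became 0.026 with library totals only, 0.035 without Control 3, 0.026 without BRG1 1, 0.049 without BRG1 2 and -0.063 to 0.043 over the replicate leave-outs. MCM3 (-0.31 as reported) became 0.013 without BRG1 1. GINS3 (-0.02 as reported) became 0.0057 without the replicate block (edgeR), 0.014 by DESeq2 with no block, 0.039 with library totals only, 0.034 without Control 2, 0.038 without Control 3, 0.20 without BRG1 1 and -0.11 to 0.14 over the replicate leave-outs. POLA2 (-0.15 as reported) became 0.016 without BRG1 1. POLD1 (-0.06 as reported) became 0.0051 with library totals only, 0.0016 without Control 2, 0.10 without Control 3, 0.21 without BRG1 1, 0.024 without BRG1 2 and -0.16 to 0.066 over the replicate leave-outs. RFC1 (-0.01 as reported) became 0.00036 by DESeq2 with the block, 0.00097 by DESeq2 with no block, 0.0029 with median-ratio factors, 0.048 with library totals only, 0.036 without BRG1 1 and -0.034 to 0.044 over the replicate leave-outs. TOP2A (-0.07 as reported) became 0.15 without Control 3 and 0.15 without BRG1 1. DNMT1 (-0.16 as reported) became 0.030 without BRG1 1. CDKN1A (0.01 as reported) became -0.017 without the replicate block (edgeR), -0.0053 with upper-quartile factors, -0.28 without Control 3, -0.20 without BRG1 1, -0.017 without BRG1 2 and -0.035 to 0.060 over the replicate leave-outs. CDKN1C (0.03 as reported) became -0.22 without Control 2, -0.089 without BRG1 1, -0.10 without BRG1 3 and -0.040 to 0.15 over the replicate leave-outs. The cause was not tested. Library totals in place of TMM factors moved the median of all genes from -0.04 to 0.02 and that of the replication genes from -0.37 to -0.31. With 3 pairs and a BRG1 spread of 1.84 times, variation between samples limited the precision. The depth of BRG1 relative to Control differed between the pairs too. BRG1 was the deeper library in pairs 1 and 2 and the shallower in pair 3. Control 1 to 3 held 37952466, 40400292 and 61519212 estimated counts, and BRG1 1 to 3 held 63613710, 54451035 and 29699741. The pair medians of the members were -0.65, -0.31 and -0.03. The part of depth in these differences was not tested.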

Other observations

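Outside the 45 genes, and picked after their values were seen, 2 genes of the further lists had a low ratio in pair 1 and much smaller differences elsewhere. DTL, a subunit of the ubiquitin ligase that degrades CDT1 in S phase, was at 32.9, 44.2 and 38.3 CPM in Control 1 to 3 and at 9.23, 40.5 and 37.8 CPM in BRG1 1 to 3, with pair differences of -1.78, -0.12 and -0.02 on the log2 scale. EXO1, an exonuclease of mismatch repair, was at 17.1, 28.4 and 20.8 CPM in Control and at 5.33, 20.5 and 19.5 CPM in BRG1 samples, with pair differences of -1.60, -0.46 and -0.09. The adjusted p was 0.229 for DTL and 0.114 for EXO1 in edgeR with the block. In both genes BRG1 1 was the lowest sample by far.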
